A study of Mus musculus with 4 samples.

Results

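The genes described are 43 skeletal muscle genes that encode proteins of the contractile filaments, of the Z-disc, of calcium handling and of muscle energy metabolism. They were chosen by measured values of the lesion-site RNA-seq table, with its genotype differences in view, so their values are given as a description and without a test. Of the 43 genes, 28 had a row at 7 or 21 days post injury (dpi), among 14718 gene symbols with a row in all. RNA was measured in spinal cord segments that held the lesion, from male targeted replacement (TR) mice that make human ApoE3 or human ApoE4 and no mouse ApoE. The mice were 3 to 5 months old by the study's methods, and under 3% isoflurane every animal received a laminectomy and a 50 kdyne contusion at thoracic level 9, so that the muscles beside the vertebrae were detached in all groups. The 4 groups were ApoE3 at 7 dpi, ApoE4 at 7 dpi, ApoE3 at 21 dpi and ApoE4 at 21 dpi. No uninjured or sham group was analysed here.

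By the study's methods, 3 mice were taken for each genotype at each time (N = 3), but a gene has a single value per group in the table. The spread among mice cannot be computed from these values, none of the differences given here has a replicate check, and the number of reads behind a gene is unknown. Levels are FPKM, fragments scaled by transcript length and by the total of fragments, so genes of different length can be compared. Genotypes were compared as log2((FPKM ApoE3 + 1)/(FPKM ApoE4 + 1)), so a negative ratio means higher in ApoE4, and folds are on the same scale of FPKM plus 1, which understates the change of low genes. The genotype of each value column follows the name of the comparison. The numbering of the columns would read the genotypes the other way round, and every genotype direction given here would then be opposite. In bulk tissue, fewer cells of a type and less RNA per cell cannot be told apart.

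The 21 dpi groups differed as a whole. Where FPKM averaged 1 or more over both genotypes, the median log2 ratio was -0.42 at 21 dpi, a 1.34-fold higher level in ApoE4, and 0.0018 at 7 dpi. At 21 dpi 93.8% of all 11474 rows were lower in ApoE3, against 49.5% of 14127 rows at 7 dpi. A relative log2 ratio is the ratio minus this median, and it is given where the shift matters.

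The tissue carried the markers of spinal cord in every group. SNAP25, a synaptic protein of neurons, was at 3366 FPKM in ApoE3 against 2545 in ApoE4 at 7 dpi, and at 5336 and 7812 at 21 dpi. MBP, the myelin basic protein of oligodendrocytes, was at 120571 and 127575 FPKM at 7 dpi and at 201348 and 278678 at 21 dpi. GFAP, an astrocyte filament protein, was at 12395 and 12386 FPKM at 7 dpi and at 8201 and 15313 at 21 dpi. Most of the muscle genes were far below these levels, and the highest value of any, TNNT3 in ApoE4 at 21 dpi, was 515 FPKM.

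In skeletal muscle, myosin motors of the thick filament pull on actin of the thin filament. Calcium released from the sarcoplasmic reticulum binds troponin and moves tropomyosin, which exposes actin to myosin. Fast and slow fibres build the same machinery from different genes, so that most myosin, troponin and calcium pump subunits have a fast and a slow isoform, and several of the slow isoforms are also made in heart.

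The rows were incomplete for these genes. At 21 dpi 24 of the 43 had a row, at 7 dpi 20 had a row, and 16 had one at both time points. Those with a row at 21 dpi only were MYL2, MYH4, ATP2A1, TCAP, MYOZ1, PGAM2, SLN and ACTC1, and those with a row at 7 dpi only were MB, MYBPC1, ACTN2 and PYGM. The other 15 were not listed at either time: MYL3, MYH1, MYH2, MYH3, MYH8, CKM, CKMT2, MYBPC2, TTN, NEB, MYOT, RYR1, CAV3, TRDN and SMPX. A missing row is not read as a level of 0. MYBPC1, at 87.9 FPKM in ApoE3 against 121 in ApoE4 at 7 dpi, had no row at 21 dpi, and its level there is unknown. In every row the higher of both values was at least 0.947 FPKM at 21 dpi and 0.823 at 7 dpi, so a gene near 0 in ApoE3 could be listed through its level in ApoE4. This was so at 21 dpi for MYL2, TNNC2, MYH4, ATP2A1, DES, TCAP, MYOZ1, PGAM2 and SLN, which were below 0.947 FPKM in ApoE3. At 7 dpi TNNC2, TNNC1 and ACTN3 were listed through ApoE3, being below 0.823 FPKM in ApoE4. In the other gene lists below, CSRP3, HSPB7, CFD, BGLAP, ALB, AHSG, TTR and SERPINA1C were listed through ApoE4 and LUM through ApoE3 at 21 dpi. Counts and medians below cover the listed genes, are not those of the whole list, and support no statement about it.

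At 21 dpi all 24 listed genes were higher in ApoE4, and 17 of them by at least 2-fold, beside 3.77% of all rows. The 9 genes listed through ApoE4 are all among these 17. Relative to the median gene, 13 of the 24 were at least 2-fold higher in ApoE4, beside 1.11% of all rows, and CASQ1 and TNNC1 lay on the ApoE3 side with relative log2 ratios of 0.13 and 0.0077. None of the 24 was at least 2-fold higher in ApoE3, beside 0.75% of rows. The median log2 ratio of the listed genes was -1.63, and -1.21 relative to the median gene. Since the genes were selected by measured values, nothing is read from these counts. At 7 dpi the 20 listed genes had a median log2 ratio of -0.018, with 11 towards ApoE4 and 9 towards ApoE3. The listed genes differ between the times, and over the 16 listed at both, the median was 0.23 at 7 dpi, with 9 higher in ApoE3 and 7 in ApoE4, and -1.36 at 21 dpi. None of the 20 was at least 2-fold higher in ApoE4 at 7 dpi, beside 0.255% of rows, and none at least 2-fold higher in ApoE3, beside 0.34% of rows.

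**Figure D1:**
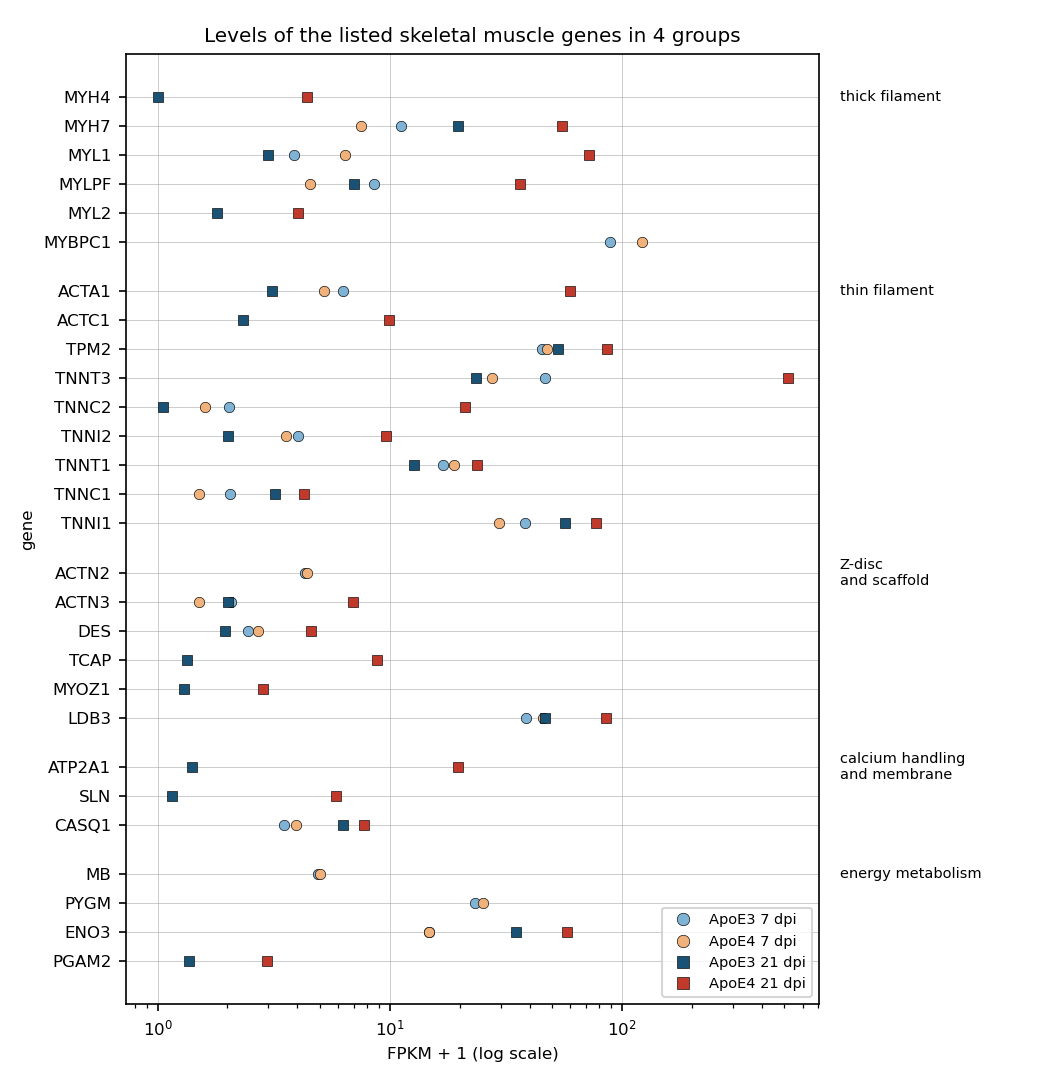
Levels of the 28 listed genes in 4 groups, as FPKM plus 1 on a log axis, ordered by role, with 1 point per group where the gene had a row. The ApoE4 21 dpi point is the highest of each gene that had a row at 21 dpi, and the widest gaps are those of TNNT3, MYL1, ACTA1, TNNC2 and ATP2A1.

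Promoters are shown for 5 genes with wide gaps that differed together at 21 dpi, picked because a search had found the motif below in them. RefSeq promoter windows (GRCm38.p6) were matched by symbol to 34 of the 43 genes, in 40 windows, with no entry for TNNT3, TNNI2, ACTN3, TCAP, SLN, MYOZ1, NEB, MYOT and TRDN. The sequences are the 250 bases before the start site, 5′ to 3′, and capitals mark CAGCTG, an E-box of the kind bound by the MyoD family of muscle regulators.
ACTA1, chr8:123894776-123895025, minus strand: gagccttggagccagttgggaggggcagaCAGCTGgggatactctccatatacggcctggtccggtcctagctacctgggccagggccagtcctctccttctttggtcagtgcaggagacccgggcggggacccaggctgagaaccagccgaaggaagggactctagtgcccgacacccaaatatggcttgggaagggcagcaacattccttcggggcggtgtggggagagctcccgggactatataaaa
MYL1, chr1:66945057-66945306, minus strand: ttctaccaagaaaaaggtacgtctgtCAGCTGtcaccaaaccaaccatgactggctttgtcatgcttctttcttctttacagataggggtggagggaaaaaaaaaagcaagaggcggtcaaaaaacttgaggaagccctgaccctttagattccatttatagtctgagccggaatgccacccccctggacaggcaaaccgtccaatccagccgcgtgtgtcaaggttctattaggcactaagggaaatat
MYLPF, chr7:127211358-127211607, plus strand: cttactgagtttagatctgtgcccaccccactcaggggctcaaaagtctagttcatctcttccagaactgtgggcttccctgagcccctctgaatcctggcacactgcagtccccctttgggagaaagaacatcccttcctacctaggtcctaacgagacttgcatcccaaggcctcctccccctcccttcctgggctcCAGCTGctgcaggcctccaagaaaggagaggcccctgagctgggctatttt
ATP2A1, chr7:126463074-126463323, minus strand: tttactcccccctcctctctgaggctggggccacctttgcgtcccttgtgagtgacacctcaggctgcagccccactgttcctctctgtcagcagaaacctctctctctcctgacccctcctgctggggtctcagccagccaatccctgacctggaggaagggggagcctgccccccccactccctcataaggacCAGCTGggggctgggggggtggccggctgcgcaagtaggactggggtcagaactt
MYH4, chr11:67237562-67237811, plus strand: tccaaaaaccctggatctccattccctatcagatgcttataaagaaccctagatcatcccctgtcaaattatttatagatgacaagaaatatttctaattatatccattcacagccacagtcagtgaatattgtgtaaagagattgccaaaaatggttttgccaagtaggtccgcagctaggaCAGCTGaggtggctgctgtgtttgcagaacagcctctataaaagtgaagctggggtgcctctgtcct
Each of these 5 windows held CAGCTG 1 time, and in MYLPF, ATP2A1, MYH4, ACTA1 and MYL1 it began 51, 55, 67, 221 and 224 bases before the start site. The window of TNNC2 did not hold these letters. Read on both strands, CAGCTG was in 19 of the 40 windows of the muscle genes (47.5%), beside 13.0% of all 32851 windows. The general E-box CANNTG, which CAGCTG also matches, was in 33 of 40 (82.5%), beside 66.2% of all. The CArG box, the site of serum response factor, was in 6 of 40 (15.0%) beside 1.47%, and the MEF2 box in 5 of 40 (12.5%) beside 2.92%. TATAAA was in 8 of 40 (20.0%) beside 12.4%. Among the genes listed at 21 dpi, CAGCTG was in 12 of 22 windows (54.5%), which include those of CASQ1 and TNNI1, genes whose ratios lay near the shift of all genes. A match is a description of these letters and does not show a bound site.

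Of the 12 thick filament genes, 5 had a row at 21 dpi, and their sum was 27.5 FPKM in ApoE3 against 167 in ApoE4. MYL1, a light chain of fast myosin, was at 2.87 FPKM in ApoE3 against 5.45 in ApoE4 at 7 dpi, and at 1.98 and 70.9 at 21 dpi. It stood 24.2-fold higher in ApoE4 at 21 dpi (log2 ratio -4.60), rank 1 of all rows towards ApoE4. MYLPF, the regulatory light chain of fast myosin, was at 7.59 and 3.53 FPKM in ApoE3 and ApoE4 at 7 dpi, and at 6.04 and 35.5 at 21 dpi. Thus MYLPF was the higher in ApoE3 at 7 dpi (log2 ratio 0.92) and 5.18-fold higher in ApoE4 at 21 dpi, whereas MYL1 was higher in ApoE4 at both times (log2 ratio -0.74 at 7 dpi).

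Of the myosin heavy chains among the 43 genes, MYH7 and MYH4 had a row at 21 dpi, and both were higher in ApoE4. MYH7, the heavy chain of slow fibres and of heart, was at 10.2 FPKM in ApoE3 against 6.55 in ApoE4 at 7 dpi, and at 18.7 and 54.3 at 21 dpi, 2.81-fold higher in ApoE4. MYH4, the heavy chain of the fastest fibres, was listed at 0 in ApoE3 and at 3.40 FPKM in ApoE4 at 21 dpi, and no fold is given against 0. MYL2, the regulatory light chain of slow fibres and heart, was at 0.806 and 3.02 FPKM at 21 dpi. MYBPC1, the slow form of myosin binding protein C, was the most abundant of the muscle genes at 7 dpi, and its log2 ratio of -0.46 was in the direction of ApoE4. The heavy chain genes resemble each other closely, and MYH1, MYH2, MYH3, MYH4 and MYH8 lie in 1 cluster on chromosome 11 with MYH6 and MYH7 side by side on chromosome 14, so reads of these genes may have been shared and their values are uncertain.

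Of the 10 thin filament genes, 9 had a row at 21 dpi, and NEB had none. Their sum was 149 FPKM in ApoE3 against 800 in ApoE4 at 21 dpi, and TNNT3 made up most of the ApoE4 value. TNNT3, the fast isoform of the troponin subunit that holds tropomyosin, was at 45.7 FPKM in ApoE3 against 26.5 in ApoE4 at 7 dpi, and at 22.5 and 515 at 21 dpi. It was 22.0-fold higher in ApoE4 at 21 dpi, and at 7 dpi it was the higher in ApoE3 (log2 ratio 0.76). ACTA1, the actin of adult skeletal muscle, was at 5.30 and 4.20 FPKM at 7 dpi and at 2.11 and 59.0 at 21 dpi. The level of ACTA1 was thus the higher in ApoE3 at 7 dpi (log2 ratio 0.28) and 19.3-fold higher in ApoE4 at 21 dpi. The 75th percentile of all rows at 7 dpi was 0.12 and the 95th 0.34.

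The fast troponin subunits followed this order of groups. TNNC2, the calcium-binding subunit of fast fibres, was at 1.02 and 0.597 FPKM in ApoE3 and ApoE4 at 7 dpi, and at 0.0562 and 20.0 at 21 dpi. TNNI2, the inhibitory subunit of fast fibres, was at 3.03 and 2.57 FPKM at 7 dpi and at 1.01 and 8.60 at 21 dpi. For both genes ApoE3 was the lowest of the 4 groups at 21 dpi and ApoE4 the highest. ACTC1, the actin of heart and of developing skeletal muscle, was at 1.34 and 8.89 FPKM at 21 dpi. ACTC1 and ACTA1 encode nearly identical proteins, so some reads may have been shared between them. TNNI2 and TNNT3 lie on chromosome 7 with 1 protein-coding gene between them.

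The slow troponin subunits and tropomyosin had a value above 0 in every group, as did the fast troponin subunits. TNNI1, the inhibitory subunit of slow fibres, was at 37.3 FPKM in ApoE3 against 28.7 in ApoE4 at 7 dpi, and at 55.8 and 76.7 at 21 dpi. TNNT1, the tropomyosin-binding subunit of slow fibres, was at 16.0 and 17.9 FPKM at 7 dpi and at 11.8 and 22.8 at 21 dpi. TNNC1, the calcium-binding subunit of slow fibres and heart, was at 1.06 and 0.512 FPKM at 7 dpi and at 2.20 and 3.27 at 21 dpi. Relative to the median gene, the log2 ratios at 21 dpi were -0.029 for TNNI1, -0.48 for TNNT1 and 0.0077 for TNNC1, against -3.89 for TNNC2 and -1.83 for TNNI2. TPM2, beta-tropomyosin, was at 44.3 and 46.5 FPKM at 7 dpi and at 52.3 and 85.0 at 21 dpi, a relative log2 ratio of -0.27.

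Of the 9 Z-disc and scaffold genes, 5 had a row at 21 dpi, with a median log2 ratio of -1.24. ACTN3, the fast-fibre alpha-actinin that anchors thin filaments, was at 1.08 FPKM in ApoE3 against 0.508 in ApoE4 at 7 dpi, and at 1.01 and 5.92 at 21 dpi. TCAP, which caps titin at the Z-disc, was at 0.344 and 7.81 FPKM at 21 dpi, 6.55-fold higher in ApoE4. LDB3, a Z-disc adaptor protein, was at 37.7 and 44.7 FPKM at 7 dpi and at 45.8 and 84.3 at 21 dpi. The abundant LDB3 had a relative log2 ratio of -0.44 at 21 dpi, whereas that of TCAP, at low FPKM, was -2.29. DES, the intermediate filament protein desmin that is also made in smooth muscle and pericytes, was at 1.47 and 1.72 FPKM at 7 dpi and at 0.943 and 3.58 at 21 dpi. ACTN2, an alpha-actinin of all striated fibres, was at 3.31 and 3.41 FPKM at 7 dpi, nearly equal in both genotypes.

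Of the 6 genes of calcium handling and membrane, ATP2A1, SLN and CASQ1 had a row at 21 dpi. ATP2A1, the calcium pump of fast fibres, was at 0.411 FPKM in ApoE3 against 18.6 in ApoE4, 13.9-fold higher in ApoE4. SLN, a small regulator of this pump, was at 0.160 and 4.86 FPKM. CASQ1, which stores calcium in the sarcoplasmic reticulum, was at 2.52 and 2.95 FPKM at 7 dpi and at 5.31 and 6.72 at 21 dpi. With a log2 ratio of -0.29, CASQ1 was the nearest to 0 of the 24 genes listed at 21 dpi and went against them relative to the median gene.

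Of the 6 genes of energy metabolism, ENO3 and PGAM2 had a row at 21 dpi and MB, PYGM and ENO3 at 7 dpi. ENO3, the muscle enolase of glycolysis, was at 13.7 FPKM in both genotypes at 7 dpi, and at 33.9 in ApoE3 and 56.9 in ApoE4 at 21 dpi. PGAM2, the muscle phosphoglycerate mutase, was at 0.365 and 1.98 FPKM at 21 dpi. PYGM, the muscle glycogen phosphorylase, was at 22.2 and 24.2 FPKM at 7 dpi, and MB, the oxygen carrier myoglobin, at 3.89 and 4.02. With the shift of all genes subtracted, neither ENO3 nor PGAM2 was at least 2-fold higher in ApoE4 at 21 dpi, beside 1.11% of rows. With 2 genes listed, nothing is read from this count. The creatine kinases CKM and CKMT2 were not listed.

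On the 2-fold line at 21 dpi, the genes just inside were PGAM2 with a log2 ratio of -1.12 and MYOZ1, a Z-disc protein that binds calcineurin, with -1.12 (0.301 FPKM in ApoE3 against 1.83 in ApoE4). Those just outside were TNNT1 with -0.90 and LDB3 with -0.87. The pair inside was below 2 FPKM in both genotypes, and the pair outside was above 11 FPKM in both.

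**Figure D2:**
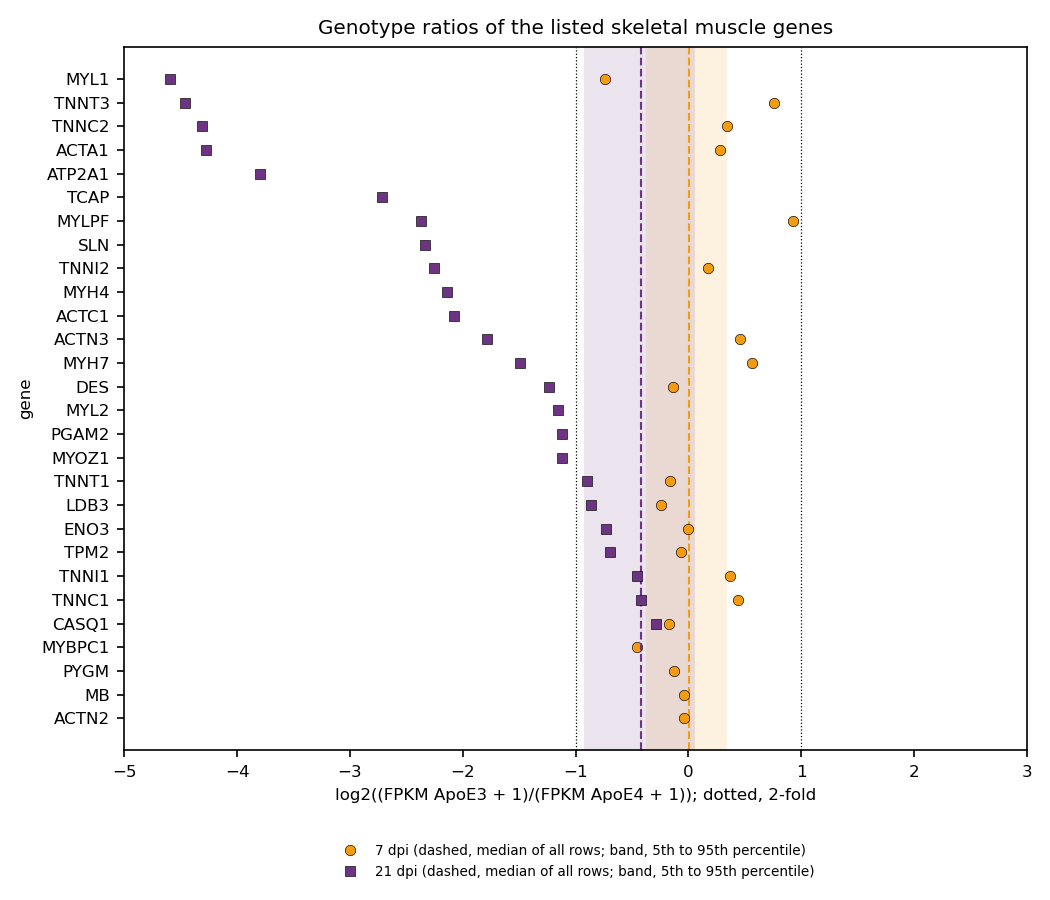
Log2 ratio of FPKM plus 1 in ApoE3 over ApoE4 for the 28 listed genes at 7 dpi (circles) and 21 dpi (squares), with the median (dashed) and the 5th to 95th percentile (band) of all rows at each time point and dotted lines at 2-fold. At 21 dpi the genes reach from -4.60 for MYL1 to -0.29 for CASQ1, and at 7 dpi from -0.74 for MYL1 to 0.92 for MYLPF. The point of MYH4 is set by the pseudocount, since its ApoE3 value is 0.

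Sorted by fibre type, the genes differed among themselves. The 8 fast-fibre genes listed at 21 dpi had a median log2 ratio of -3.09. Each was at least 2-fold higher in ApoE4, beside 3.77% of all rows, also relative to the median gene, beside 1.11%. Of these 8 genes, MYH4, ATP2A1 and TNNC2 were listed through ApoE4, with MYH4 at 0 in ApoE3. The 5 slow-fibre genes listed at 21 dpi had a median of -0.90, with MYH7 and MYL2, the latter listed through ApoE4, past 2-fold and, relative to the median gene, MYH7 alone. The 10 listed genes in neither of these classes nor in the developmental class had a median of -1.12. The difference between fast and slow genes was not tested, and fast and slow members were chosen with values in view.

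Within pairs of isoforms, the balance between fast and slow moved with the group. The log2 ratio of fast TNNT3 over slow TNNT1 was 1.46 in ApoE3 and 0.54 in ApoE4 at 7 dpi, and 0.88 in ApoE3 and 4.44 in ApoE4 at 21 dpi. That of TNNC2 over TNNC1 was -0.022 and 0.080 at 7 dpi, and -1.60 and 2.30 at 21 dpi, where the value in ApoE3 depends on the pseudocount, since TNNC2 was near 0 and listed through ApoE4. That of TNNI2 over TNNI1 was -3.25 and -3.06 at 7 dpi, and -4.82 and -3.02 at 21 dpi, so the slow isoform was the more abundant in all 4 groups. At 21 dpi MYLPF over MYL2 was at 1.96 and 3.18, and no ratio is given for MYH4 over MYH7, since MYH4 was listed at 0 in ApoE3. With TNNC2 over TNNC1 set aside, TNNT3 over TNNT1 and TNNI2 over TNNI1 held relatively more of the fast isoform in ApoE4 at 21 dpi. So did MYLPF over MYL2, but its value in ApoE3 also depends on the pseudocount, since MYL2 was low and listed through ApoE4. The value of TNNI2 over TNNI1 in ApoE3 at 21 dpi depends on it as well, with TNNI2 at 1.01 FPKM. At 7 dpi so do the values of TNNC2 over TNNC1, genes at 0.512 to 1.06 FPKM there.

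Among genes listed at both times, the 6 fast genes summed to 61.3 FPKM in ApoE3 against 39.1 in ApoE4 at 7 dpi, and to 32.5 and 656 at 21 dpi. The 4 slow genes summed to 64.5 and 53.7 FPKM at 7 dpi, and to 88.4 and 157 at 21 dpi. Fast genes thus made up 48.7% and 42.2% of the fast and slow sum at 7 dpi, and 26.9% and 80.7% at 21 dpi. Without TNNT3, a choice made after the values were seen, the shares were 19.5%, 19.1%, 10.2% and 47.3% in the same order, and the order of the 21 dpi groups was kept.

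By the study's methods all libraries were reduced to an equal number of reads before alignment, and 1 replicate, of a group not named there, aligned less completely than the others, so the aligned reads were not equal. Whether the FPKM of both time points were scaled together was not given in the sources used here, so levels across them are set side by side without a test. Between 7 and 21 dpi, all 16 genes listed at both times were higher at 21 dpi in ApoE4. Their median log2 difference was 1.74, beside 0.53 over all 10876 genes listed once at both, of which 8515 were higher. In ApoE3, 7 of the 16 were higher at 21 dpi and 9 lower, beside 6083 higher and 4793 lower among all genes. The median in ApoE3 was -0.17, beside 0.088 over all genes. All 6 fast genes were lower at 21 than at 7 dpi in ApoE3 (median -0.66) and higher in ApoE4 (median 3.25). Their direction was that of most genes in ApoE4 and not in ApoE3. TNNT3, a fast gene, and ACTA1, in neither fibre class, differed by 4.23 and 3.53 log2 units between the times in ApoE4 and by -0.99 and -1.02 in ApoE3. ENO3, in contrast, was higher at 21 dpi in both genotypes, by 1.25 in ApoE3 and 1.97 in ApoE4, and so was CASQ1, by 0.84 and 0.97.

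**Figure D3:**
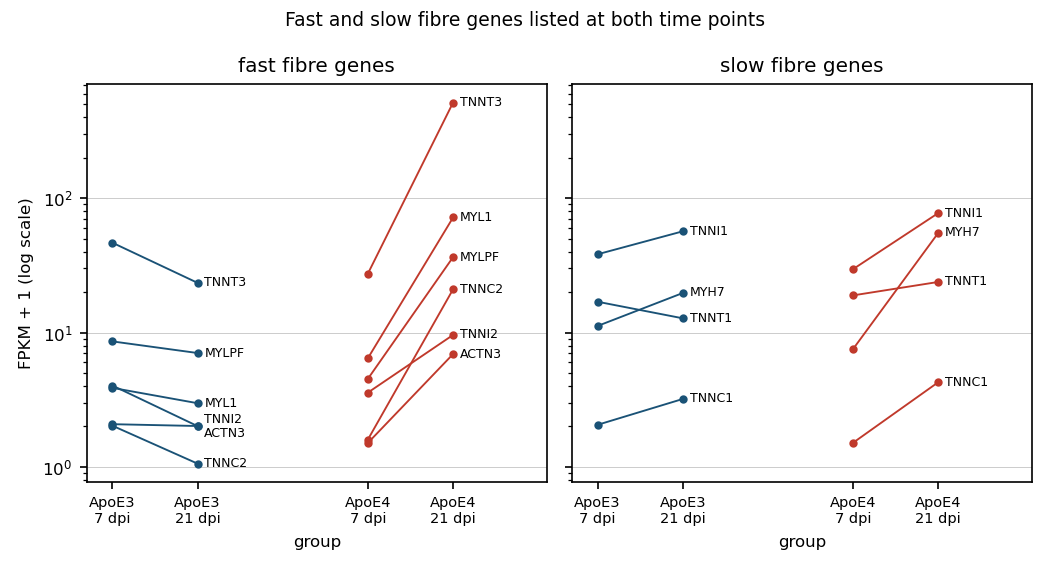
FPKM plus 1 on a log axis for the fast-fibre genes (left) and slow-fibre genes (right) listed at both time points, with a line from 7 to 21 dpi in each genotype and 1 value per gene and group. All 6 fast genes are lower at 21 than at 7 dpi in ApoE3 and higher in ApoE4, and of the 4 slow genes TNNT1 alone is lower at 21 dpi in ApoE3.

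Summed over the listed genes, the muscle transcripts came to 348 FPKM in ApoE3 against 359 in ApoE4 at 7 dpi, and to 265 and 1159 at 21 dpi (log2 ratio of the sums -0.045 and -2.12). Over the 16 genes listed at both times, the log2 ratio of the sums was 0.16 at 7 dpi and -2.08 at 21 dpi. TNNT3 made up 8.59% of the sum of the 16 genes listed at both times in ApoE3 at 21 dpi and 46.5% in ApoE4. Without the most abundant gene of each time point, MYBPC1 at 7 dpi and TNNT3 at 21 dpi, the log2 ratio of the sums was 0.13 at 7 dpi, where it changed sign, and -1.40 at 21 dpi.

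Other skeletal muscle genes were taken from a list of 58 symbols outside the 43, of which 20 had a row at each time point. At 21 dpi their median log2 ratio was -0.68, or -0.25 relative to the median gene, and 6 of the 20 were at least 2-fold higher in ApoE4, beside 3.77% of all rows, and 4 relative to the median gene, beside 1.11%. CSRP3, a muscle LIM protein listed through ApoE4, was at 0.373 FPKM in ApoE3 against 5.04 in ApoE4 at 21 dpi. CAR3, the carbonic anhydrase of slow muscle that is also abundant in fat, was at 2.36 and 3.47 FPKM at 7 dpi and at 1.29 and 8.09 at 21 dpi. STAC3, which couples excitation to calcium release, was at 11.1 and 9.41 FPKM at 7 dpi and at 6.38 and 24.0 at 21 dpi. COX6A2, a muscle form of a cytochrome oxidase subunit, was at 4.22 and 3.36 FPKM at 7 dpi and at 3.16 and 10.4 at 21 dpi, and CACNA1S, the voltage sensor of the muscle membrane, at 1.27 and 5.07 at 21 dpi. These 5 genes had the widest ratios of the list, and none was as far from 0 as MYL1, TNNT3, TNNC2, ACTA1 or ATP2A1. The most abundant genes of the list, which are also made in brain, lay near the shift of all genes, with SLC25A4, a mitochondrial ADP/ATP carrier, at 511 and 684 FPKM. At 7 dpi the median of the list was 0.086. None was at least 2-fold apart, beside 0.255% of rows towards ApoE4 and 0.34% towards ApoE3.

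Genes that mark the making and innervation of muscle were mostly not listed. Of 6 muscle regulators, MYMK, a protein of myoblast fusion, had a row, at 1.87 FPKM in ApoE3 against 1.68 in ApoE4 at 7 dpi and at 1.28 and 3.65 at 21 dpi, while PAX7, MYF5, MYOD1, MYOG and MYF6 had none. Of 8 genes of the neuromuscular junction, CHRNB1 and RAPSN had a row at 21 dpi and summed to 9.30 and 11.8 FPKM, with CHRNB1 the more abundant at 5.19 and 6.72. At 7 dpi, with DOK7, the 3 listed genes summed to 74.6 and 74.5 FPKM. DOK7 made up most of these sums, at 67.6 and 66.1 FPKM. It had no row at 21 dpi, so the sums of the time points cover different genes. CHRNA1, CHRND, CHRNE, CHRNG and MUSK had no row.

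Genes of the heart list moved in part with the contractile genes. Of 10 heart genes, 5 had a row at 21 dpi, and their sum was 68.8 FPKM in ApoE3 against 174 in ApoE4, with 3 of the 5 at least 2-fold higher in ApoE4, beside 3.77% of all rows. The atrial light chains MYL7 and MYL4 were at 1.64 and 14.7 FPKM and at 7.00 and 40.3 FPKM in ApoE3 and ApoE4, and MYH6, the alpha heavy chain, at 9.70 and 32.3. TNNT2, the most abundant of the list, was at 27.5 and 12.8 FPKM at 7 dpi and at 38.6 and 75.6 at 21 dpi. TNNI3, the cardiac inhibitory troponin, went the other way, at 11.9 and 11.4 FPKM at 21 dpi. MYBPC3, NPPA, NPPB, PLN and RYR2 had no row at either time. At 7 dpi 3 heart genes had a row and summed to 38.6 and 25.4 FPKM, and 1 of them, TNNT2, was at least 2-fold higher in ApoE3 (log2 ratio 1.05), beside 0.34% of rows. The part of heart transcripts in the values of MYH7, MYL2, TNNC1 and ACTC1 was not tested. Nor was the part of skeletal muscle transcripts in the values of the heart list.

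Markers of other tissues outside the cord were also unequal at 21 dpi. All 6 liver genes had a row at 21 dpi and none at 7 dpi, and they summed to 7.54 FPKM in ApoE3 against 98.3 in ApoE4, with APOA2 the most abundant at 5.38 and 59.2. Of 9 adipose genes 3 had a row, and they summed to 4.58 and 21.3 FPKM, with FABP4 at 3.29 and 6.92 and CFD listed at 0 in ApoE3 and at 6.27 in ApoE4. The adipose list shares CAR3 with the other skeletal muscle list, and ADIPOQ, PLIN1, CIDEC, RETN, LEP and UCP1 had no row. Of 9 bone and cartilage genes 6 had a row and summed to 101 and 175 FPKM, with ALPL the most abundant at 62.8 and 80.1 and UCMA, a cartilage matrix protein, at 22.1 and 64.1. Without UCMA, left out after the values were seen, they summed to 79.1 and 111 FPKM, a log2 ratio of -0.48 and so near the shift of all genes. ALPL made up most of this sum, and the median log2 ratio of the 6 genes was -0.92. Single ratios were -1.40 for BGLAP, -1.03 for SP7 and -0.81 for DMP1, against -0.35 for ALPL and -0.30 for ACAN. At 7 dpi adipose genes summed to 44.0 and 54.7 FPKM and bone and cartilage genes to 94.6 and 89.5. The part of such tissue in the muscle values was not tested.

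Fibroblast markers were mostly higher in ApoE3 at 21 dpi, and smooth muscle markers were divided. All 7 fibroblast and fascia genes had a row, 6 were higher in ApoE3, and they summed to 150 FPKM in ApoE3 against 90.5 in ApoE4, against 504 and 631 at 7 dpi. DCN, the proteoglycan decorin, was at 61.9 and 9.37 FPKM and MFAP5, a microfibril protein, at 19.2 and 1.97. Both were at least 2-fold higher in ApoE3, beside 0.75% of all rows. Without DCN, left out after the values were seen, the list summed to 88.2 and 81.1 FPKM. Without DCN and MFAP5 it summed to 68.9 and 79.1, so the direction of the sum rests on these 2 genes. The log2 ratio without both, -0.20, was less far towards ApoE4 than the median gene at -0.42. Of the 5 genes left, 4 were higher in ApoE3. PDGFRA, at 42.0 and 58.8 FPKM, had the highest total over both genotypes at 21 dpi and was the gene higher in ApoE4, and COL1A1 had the highest total at 7 dpi, at 212 and 270. Of 9 smooth muscle genes 5 had a row at 21 dpi and summed to 266 and 229 FPKM, with SMTN the most abundant at 164 and 96.4. Of these 5, MYH11, TAGLN and MYLK were higher in ApoE4, and without SMTN, left out after the values were seen, the sums were 102 and 133 FPKM, so the direction of the sum rests on SMTN. At 7 dpi 7 smooth muscle genes summed to 306 and 335. Of 6 erythrocyte genes 4 had a row at 21 dpi and summed to 1063 and 1335 FPKM, each less far towards ApoE4 than the median gene, with HBA-A1 the most abundant at 458 and 590, and at 7 dpi 5 summed to 492 and 489.

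Genes of the cord's own cell types were higher in ApoE4 at 21 dpi, as most rows were. The median log2 ratio was -0.60 over 6 of 8 neuron genes, -0.55 over 4 of 5 oligodendrocyte genes, -0.77 over 5 of 5 astrocyte genes and -0.94 over 3 of 6 genes of microglia and macrophages. Relative to the median gene, these medians were -0.18, -0.12, -0.35 and -0.52 in the same order. The -0.94 of microglia and macrophages was below the 5th percentile of all rows at 21 dpi, -0.92. Of its 3 genes 1, LYZ2, was at least 2-fold higher in ApoE4, beside 3.77% of all rows. The sums of these lists in ApoE3 and ApoE4 at 21 dpi were 7232 and 10788 FPKM for neurons, 225609 and 318021 for oligodendrocytes, 13146 and 22857 for astrocytes, and 451 and 862 for microglia and macrophages, in which LYZ2 was the most abundant at 212 and 426. At 7 dpi the sums were 5543 and 4328, 126687 and 133853, 16837 and 16405, and 6302 and 8240 FPKM in the same order.

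Paralogs of the contractile and metabolic genes that are used outside skeletal muscle had a median near the shift. The list is not free of muscle genes, since ATP2A2 is also the pump of slow fibres, CASQ2 is a calsequestrin of heart and slow muscle, and RYR2, which had no row, is shared with the heart list. Of 29 such paralogs 20 had a row at 21 dpi, with a median log2 ratio of -0.38, or 0.044 relative to the median gene. None was 2-fold apart, beside 3.77% of all rows towards ApoE4 and 0.75% towards ApoE3. ACTB, the cytoplasmic actin, was at 3555 FPKM in ApoE3 against 3730 in ApoE4 at 7 dpi and at 2412 and 3403 at 21 dpi. ATP2A2 was at 247 and 378 FPKM at 21 dpi, against 0.411 and 18.6 for ATP2A1. ENO1, the enolase of most tissues, was at 522 and 620 FPKM at 21 dpi, and PGAM1, the mutase of most tissues, at 241 and 309. The lowest ratio among the paralogs was -0.68, that of CASQ2, and the highest 0.27, so their range overlapped the values of TNNI1, TNNC1 and CASQ1 and not that of the fast-fibre genes.

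**Figure D4:**
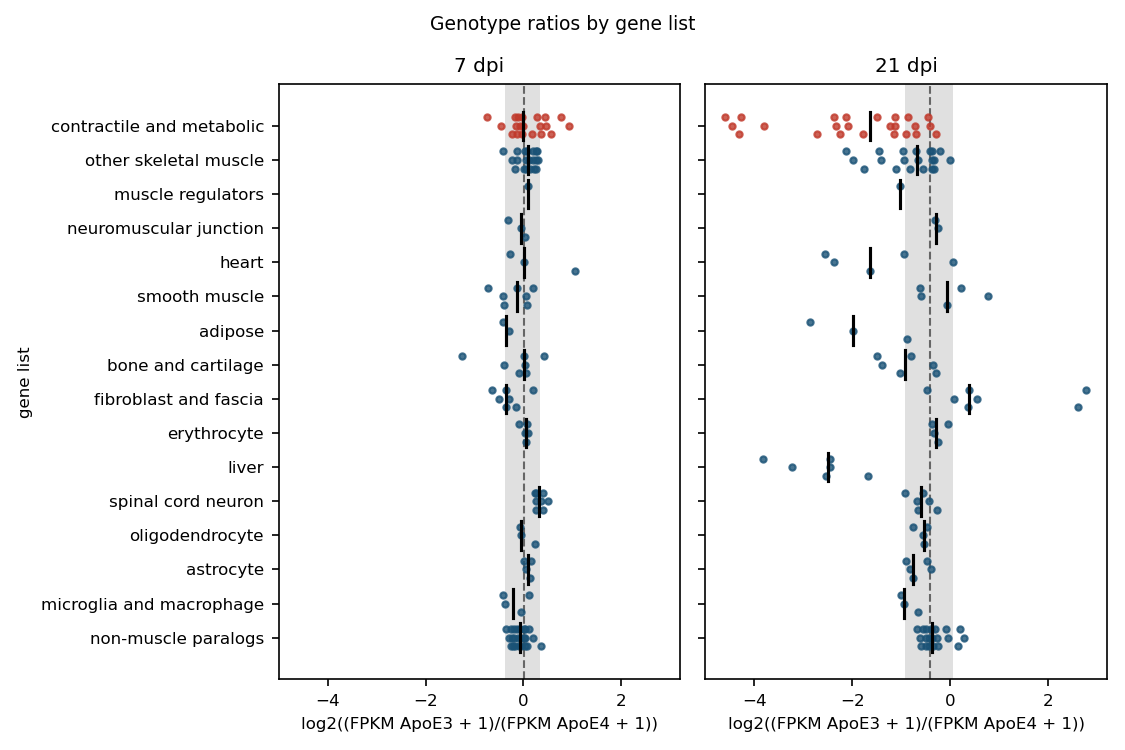
Log2 ratio of FPKM plus 1 in ApoE3 over ApoE4 for each listed gene (points) of the contractile and metabolic genes as a whole and of each other gene list at 7 dpi (left) and 21 dpi (right), with a bar at the median of a list, a dashed line at the median of all rows and a band from their 5th to 95th percentile. At 21 dpi the lowest medians drawn are those of the liver (-2.50), adipose (-1.99), heart (-1.64) and contractile and metabolic (-1.63) genes. Fibroblast and fascia genes have a median of 0.39. The adipose median, over 3 genes, is the value of CAR3, which is also in the other skeletal muscle list. The point of CFD is set by the pseudocount, since its ApoE3 value is 0.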

How the data were processed

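RNA-seq values were used for 4 groups, male ApoE3 and ApoE4 TR mice at 7 and 21 dpi. The authors deposited FPKM plus 1, with 1 value per gene and group, and 1 was subtracted. Single-mouse values were not used here. The submitters' processing notes name STAR 2.5.4b, Bowtie2 2.1.10, SAMtools 0.1.7 and Cuffdiff 1.3.0, and the genome build is not given in the sources used here. The authors' own comparison columns hold a p-value, a q-value, a significance call, a fold change and a log2 fold change, and another deposited table holds the genes they called with log2 values. Neither was used for any value given here.

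Ratios used a pseudocount of 1 FPKM, and genes were counted past 2-fold by row. The symbols were written as in the table, and 2 symbols at each time point stood on 2 rows. No test was run, since 1 value per group gives no spread, and depth per gene is unknown. The members and lists were chosen with earlier results of these data known. Genes named with values were the 12 with the widest ratio at 21 dpi, the 5 with the highest FPKM, fast and slow pairs both listed, those against the direction of the median, the nearest to the 2-fold line, the 5 other muscle genes with the widest ratio, the most abundant marker of each list, and examples of non-muscle paralogs. Other genes were named once their values were known. Results were recomputed with pseudocounts of 0.1 and 0.01, a mean FPKM of at least 1, subtraction of the median of all genes, folds of 1.3 and 4, leaving out the most abundant or the 5 most abundant genes, and the genotypes read the other way round. The tools were Python 3.11.15, pandas 2.3.3 and numpy 2.4.6, with figures by matplotlib 3.10.9, and counting was tested on simulated data.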

Additional observations from a re-analysis of the deposited data

Results flagged for a closer look

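Several values lay on opposite sides of the median gene at the 2 time points, above it (towards ApoE3) at 7 dpi and below it (towards ApoE4) at 21 dpi. None of these differences was tested, since each rests on 1 value per group. Of the 16 genes listed at both times, 8 were of this kind. The share of all genes that were of this kind is not given here, so nothing is read from this count. The relative log2 ratio at 21 dpi minus that at 7 dpi was -4.80 for TNNT3, -4.23 for TNNC2, -4.12 for ACTA1, -2.87 for MYLPF, -2.01 for TNNI2, -1.82 for ACTN3, -1.63 for MYH7 and -0.39 for TNNI1. For the median of a list it was -3.06 for fast-fibre genes, -0.84 for slow-fibre genes, -1.23 for heart genes and -0.34 for other skeletal muscle genes. Other lists had medians on opposite sides in this way too, with -0.70 for the 1 muscle regulator listed, -0.51 for bone and cartilage genes, -0.48 for neuron genes and -0.44 for astrocyte genes, so this was not particular to muscle and heart. The median of fibroblast and fascia genes went the other way, from -0.35 at 7 dpi to 0.81 at 21 dpi, and so did those of smooth muscle genes (-0.13 and 0.35), neuromuscular junction genes (-0.062 and 0.14) and non-muscle paralogs (-0.079 and 0.044). Before the shift was subtracted, the fibroblast median also changed sides. The medians of the smooth muscle, junction and paralog lists were then towards ApoE4 at both times. TNNC2 and ACTN3 were listed through ApoE3 at 7 dpi, and TNNC2 through ApoE4 at 21 dpi, and the part of this in their sides was not tested. The listed genes of most lists differ between the time points. For TNNI1 the relative value at 21 dpi was -0.029. At 7 dpi that of the heart list was 0.018 and that of bone and cartilage genes 0.013. TNNI1 and both lists thus lie close to the median gene at 1 of the times. CASQ1 lay on opposite sides the other way, with a relative log2 ratio of -0.17 at 7 dpi and 0.13 at 21 dpi, though its ratio before the shift was subtracted was towards ApoE4 at both times.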

How the results depend on the processing

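Reading the genotypes by the numbering of the columns turned every direction. The median log2 ratio of the listed genes was then 1.63 at 21 dpi and 0.018 at 7 dpi, and the log2 ratio of the sums 2.12 and 0.045. The median at 21 dpi, -1.63 as reported, was -2.35 and -2.54 with pseudocounts of 0.1 and 0.01 and -1.21 with the median of all genes subtracted, and that at 7 dpi was -0.036 among genes whose mean FPKM reached 1. The count of genes at least 2-fold higher in ApoE4 at 21 dpi, 17 as reported, was 11 at a fold of at least 4, 0 with the genotypes read by the numbering of the columns, and between 13 and 23 under the other alternatives. The count at least 2-fold higher in ApoE3 at 7 dpi, 0 as reported, was 1 and 3 with pseudocounts of 0.1 and 0.01 and 5 at a fold of at least 1.3. The log2 ratio of the sums at 21 dpi was -1.40 without the most abundant gene, -2.61 without the 5 most abundant and -1.70 with the median subtracted. At 7 dpi it turned to 0.13 and 0.050 without the most abundant gene and the 5 most abundant. In alternatives chosen after seeing the data, the log2 ratio of the smooth muscle sum at 21 dpi turned from 0.21 to -0.39 without SMTN, and that of the fibroblast sum was 0.12 in place of 0.72 without DCN and turned to -0.20 without DCN and MFAP5. A smaller pseudocount widens the ratios of low genes by its construction, and the cause of the other changes was not tested. No paired analysis was possible because the table holds 1 value per group. Genes with low FPKM rest on few reads whose number is unknown.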
